A study of Mus musculus with 9 samples.

Results

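Expression was compared between 6 RNA-seq libraries in which CD40L had been perturbed and 3 control libraries, which together are all 9 libraries of the study. Every library came from naive CD4+ T cells sorted from the spleen of C57BL/6 mice and cultured on plates coated with 1 µg/ml of an antibody to CD3e, a chain of the T cell receptor complex. The first perturbed group was wild type (genotype label wt) on plates that also carried 19 µg/ml of an antibody to CD40L. The second perturbed group, titled KO and given the genotype label cre, came from mice in which T cells lacked CD40L and was cultured with 19 µg/ml of isotype antibody. The controls were wild-type cells with the same amount of isotype antibody. Each group had 3 libraries. The sources used here do not give the Cre driver, the age and sex of the mice, the time in culture, or whether libraries came from separate animals, so the tests measure only the spread between libraries. No group combined the KO label with anti-CD40L.

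CD40L (gene Cd40lg) is a TNF family ligand that activated helper T cells display to CD40 on B cells, dendritic cells and macrophages. CD40 recruits TRAF adaptors and activates NF-kB, and in B cells this raises the IgE receptor CD23 (Fcer2a), the costimulatory protein CD86 and the survival protein BCL-XL. An antibody that holds CD40L can block its contact with CD40 and can also cross-link CD40L on the T cell, while deletion of the gene removes the ligand itself.

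Genes were described when all 6 perturbed libraries lay on the same side of all 3 wild-type isotype libraries in CPM (counts scaled to a common library size). Of 11256 genes tested, 630 (5.6%) did so, 310 above the controls (2.75%) and 320 below (2.84%). The mean of both perturbed groups, each with equal weight, was then tested against the controls. With the quasi-likelihood test of edgeR, 213 genes (1.89%) were called at a Benjamini-Hochberg adjusted p under 0.05, 15 higher (0.133%) and 198 lower (1.76%), and 1852 (16.5%) had an unadjusted p under 0.05. Of the called genes, 81 (0.72% of those tested) also lay on the same side in all 6 libraries, 11 above (0.0977%) and 70 below (0.622%), and these are the shared genes described here. Of the called genes that did not, 128 were lower (1.14%) and 4 higher (0.0355%). The other 549 genes on the same side, 299 above and 250 below, were not called. The side of the controls and the call rest on the same libraries, so they do not support each other. At the edge of the rule, Rsrp1 was included with a highest perturbed library of 158.9 CPM against a lowest control of 159.1 CPM, and Klhl24 was left out with 88.6 against 87.9 CPM.

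Taken alone, the same fit called 1055 genes (9.37%) on anti-CD40L, 328 higher (2.91%) and 727 lower (6.46%), with 26.4% at an unadjusted p under 0.05. It called 0 (0.0%) among libraries labelled KO, where 649 genes (5.77%) had an unadjusted p under 0.05 and DESeq2 called 39. Of the 81 shared genes, 78 were called on anti-CD40L alone and none for the KO label alone, where 59 had an unadjusted p under 0.05. Both comparisons use the same control libraries. A control group that happened to be high or low would move both in the same direction, so agreement in direction was not used as evidence.

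The libraries held 5316482 to 15565711 counts over genes, with the smallest in anti-CD40L replicate 3. That library had a count for 11673 genes against 14290 to 17428 in the others, and it stood at 66.01 on the first principal component (49.3% of the variance), the others between -17.87 and 14.89. Without it 261 genes were called, and 73 of the 81 shared genes were among them. Summed CD4 T cell markers ranged over similar levels in the 3 groups, 3449 to 4039, 3121 to 3653 and 3278 to 3955 CPM in controls, anti-CD40L and KO libraries. The transcript NR_046233, which had no gene symbol, took 1.184% to 2.635% of the counts in controls, 0.766% to 1.409% on anti-CD40L and 1.141% to 1.211% in KO libraries. Its part in the results was not tested. Without that row in the library sizes 211 genes were called, 80 of the 81 among them.

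Promoter letters are given for 3 shared genes that stand for the groups of results below: Fcer2a for genes of CD40-stimulated B cells, Tnip1 for NF-kB regulators and S1pr4 for lymphocyte traffic. Each is RefSeq sequence of GRCm38.p6 from 250 to 41 bases before a start, on the minus strand and written 5′ to 3′. These stretches overlap no exon in GENCODE vM21. Capitals mark matches on either strand to CCACCC (a KLF motif) or to the NF-kB consensus, and other motifs searched are in lower case.
Fcer2a, chr8:3694215-3694424: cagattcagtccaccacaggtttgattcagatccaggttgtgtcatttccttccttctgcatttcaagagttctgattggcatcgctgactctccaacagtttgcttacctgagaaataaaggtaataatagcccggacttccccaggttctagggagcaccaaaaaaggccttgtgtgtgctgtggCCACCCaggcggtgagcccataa
Tnip1, chr11:54962981-54963190: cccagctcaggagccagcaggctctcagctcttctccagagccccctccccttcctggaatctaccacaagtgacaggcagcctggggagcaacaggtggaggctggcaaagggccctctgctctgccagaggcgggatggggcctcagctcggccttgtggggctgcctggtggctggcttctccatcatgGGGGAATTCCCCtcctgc
S1pr4, chr10:81500178-81500387: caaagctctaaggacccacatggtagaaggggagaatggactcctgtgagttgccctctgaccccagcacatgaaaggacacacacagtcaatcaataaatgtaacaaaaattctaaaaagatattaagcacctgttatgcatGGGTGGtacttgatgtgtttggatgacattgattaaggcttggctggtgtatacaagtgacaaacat
The capitals in Tnip1 are 3 overlapping matches to the NF-kB consensus, and those in Fcer2a and S1pr4 are KLF matches on opposite strands. Fcer2a has other starts whose stretches are not printed. That at chr8:3690431-3690640 holds a KLF match on the other strand, and that at chr8:3690902-3691111 holds neither marked motif. Of the 70 lower genes 59 had a promoter in the RefSeq table, and at least 1 of their windows of 300 bases held the NF-kB consensus in 11.9% and CCACCC in 54.2%. Among the 11 higher genes 8 had a promoter, and the shares were 25.0% and 75.0%. Over the 9006 tested genes with a promoter the shares were 12.1% and 40.2%. The match is a description of letters, not of binding.

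**Figure D1:**
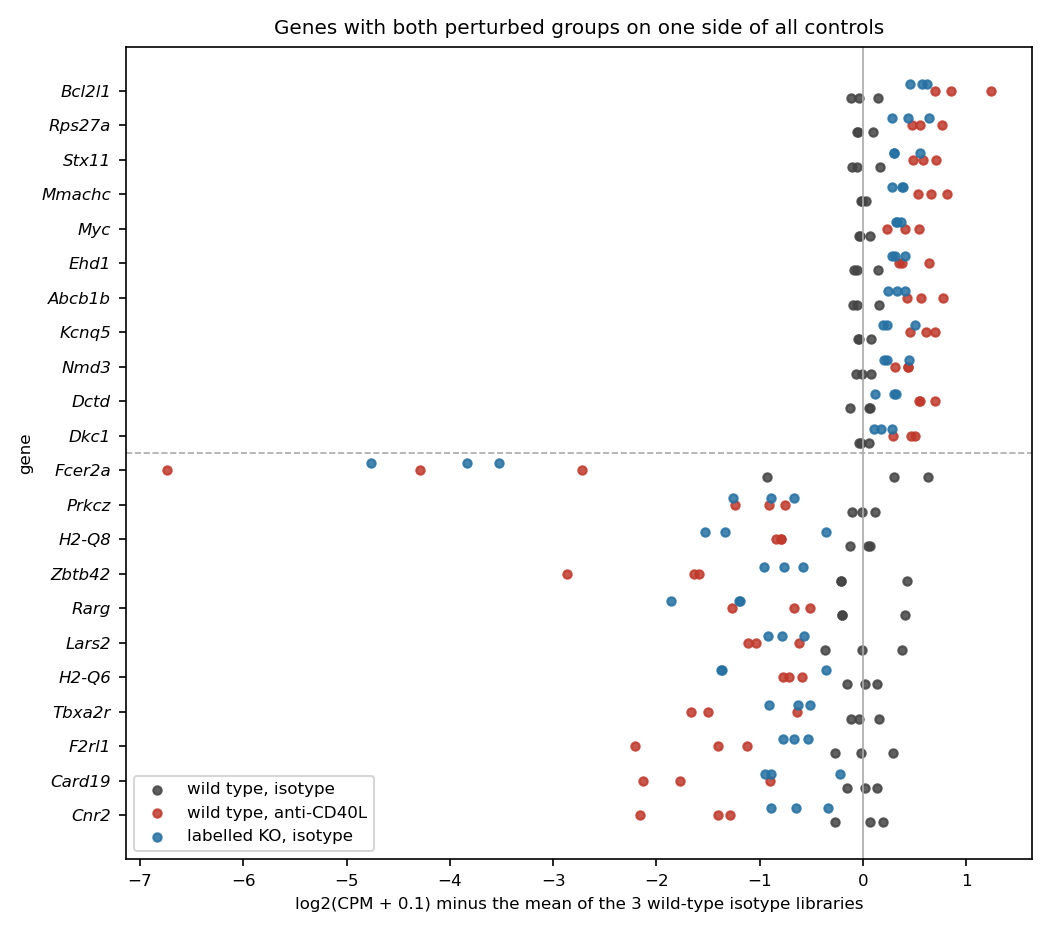
Level of the leading shared genes in each library, as log2(CPM + 0.1) minus the mean of the 3 wild-type isotype libraries (x axis), with genes in rows and 1 point per library. The 11 genes above the dashed line are higher, and the 11 below it lower, in all 6 perturbed libraries. Fcer2a lies farthest from the controls.

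The targeted gene was examined first. Cd40lg (GRCm38 chromosome X, 57212143 to 57224042) stood at 142, 154 and 189 CPM in the controls, 109, 132 and 163 CPM on anti-CD40L, and 145, 136 and 150 CPM in the libraries labelled KO. The 3 groups overlapped, and Cd40lg was not called (log2 fold change of the perturbed groups -0.22, SE 0.12; edgeR, Benjamini-Hochberg adjusted p = 0.372). The counts are per transcript, and the deleted part is not given, so this level does not check the label. Directions drawn from those 3 libraries rest on the label KO.

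The deepest shared fall was in a B cell gene. Fcer2a, which encodes CD23, a low-affinity receptor for IgE on B cells (chromosome 8, 3680280 to 3694174), was at 13.1, 16.4 and 5.51 CPM in the controls. It stood at 0.448, 1.52 and 0 CPM on anti-CD40L and at 0.65, 0.293 and 0.827 CPM in KO libraries. The lowest control was above the highest perturbed library. Fcer2a was 17.4-fold lower in the perturbed groups (log2 fold change -4.12, SE 0.48; edgeR, Benjamini-Hochberg adjusted p = 0.00157). It had the largest fall of the shared genes in each perturbed group, and the groups differed from each other by a log2 value of 0.32 (SE 0.78; edgeR, Benjamini-Hochberg adjusted p = 0.855). Fcer2a was called in all 19 alternative fits, with a highest adjusted p of 0.0231 (Benjamini-Hochberg), and it was the only gene called when the 6 perturbed libraries were treated as a single group.

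The receptor CD40 and further genes that CD40 raises in B cells had counts too low for the main test. Cd40 had 12, 18 and 4 counts in controls, 2, 0 and 0 on anti-CD40L, and 1, 4 and 0 in KO libraries. The ratio of summed counts to the controls, scaled by library size, was 0.0681 on anti-CD40L (95% interval 0.00793 to 0.266) and 0.116 in KO libraries (0.0354 to 0.298), where intervals cover counting error only. All perturbed libraries held fewer Cd40 counts than 2 of the 3 controls. In CPM all 6 lay below all 3 controls, though KO replicate 2 and control replicate 3 held 4 counts each. Ebi3, a subunit shared by IL-27 and IL-35, had 15, 13 and 7 counts in controls, 0 in each anti-CD40L library, and 2, 3 and 2 in KO libraries (ratio 0.158 in KO, interval 0.059 to 0.36). Ccl22, a chemokine that attracts CCR4-bearing T cells, had 16, 33 and 5 counts in controls, 0, 2 and 0 on anti-CD40L, and 7, 0 and 1 in KO libraries. The Ccl22 ratios were 0.0429 (0.00507 to 0.163) and 0.117 (0.0479 to 0.247). Ebi3 and Ccl22 thus fell to few or no counts in both groups, while 1 KO library held more Ccl22 than the lowest control. With no expression filter, the edgeR test on 19646 genes called Cd40, Ebi3 and Ccl22 (Benjamini-Hochberg adjusted p = 0.0125, 0.00177 and 0.000677), and did not call Cd86 (0.719). These genes, other than Cd40, were chosen from the list after their values were seen.

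General B cell markers did not share this pattern throughout. Cd79a and Cd79b, the signalling chains of the B cell receptor, gave log2 fold changes of 0.16 (SE 0.53) and 0.45 (SE 0.51). Cd74, the MHC class II invariant chain, counted here with dendritic cell markers, gave 0.04 (SE 0.33). Pax5, the B lineage regulator, gave -0.86 (SE 0.50). Their groups overlapped, and none of these 4 was called (edgeR, Benjamini-Hochberg adjusted p = 0.917, 0.713, 0.971 and 0.417). Summed over 9 B cell markers, Fcer2a included, the level ranged from 13.19 to 39.52 CPM in controls, 1.72 to 14.81 CPM on anti-CD40L and 7.612 to 19.4 CPM in KO libraries. In bulk samples fewer cells of a type and less RNA per cell cannot be told apart, and the part of carried-over B cells was not tested. Of 7 B cell markers tested, 2 fell, Fcer2a among them, and none rose, with a list median of -0.86. Of 24 CD40-induced genes listed, 18 were tested, of which Fcer2a fell and Bcl2l1 and Irf4 rose. The list median was 0.03 on the log2 scale, against -0.01 over all genes tested. Of all genes tested, 1.76% fell and 0.133% rose.

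**Figure D2:**
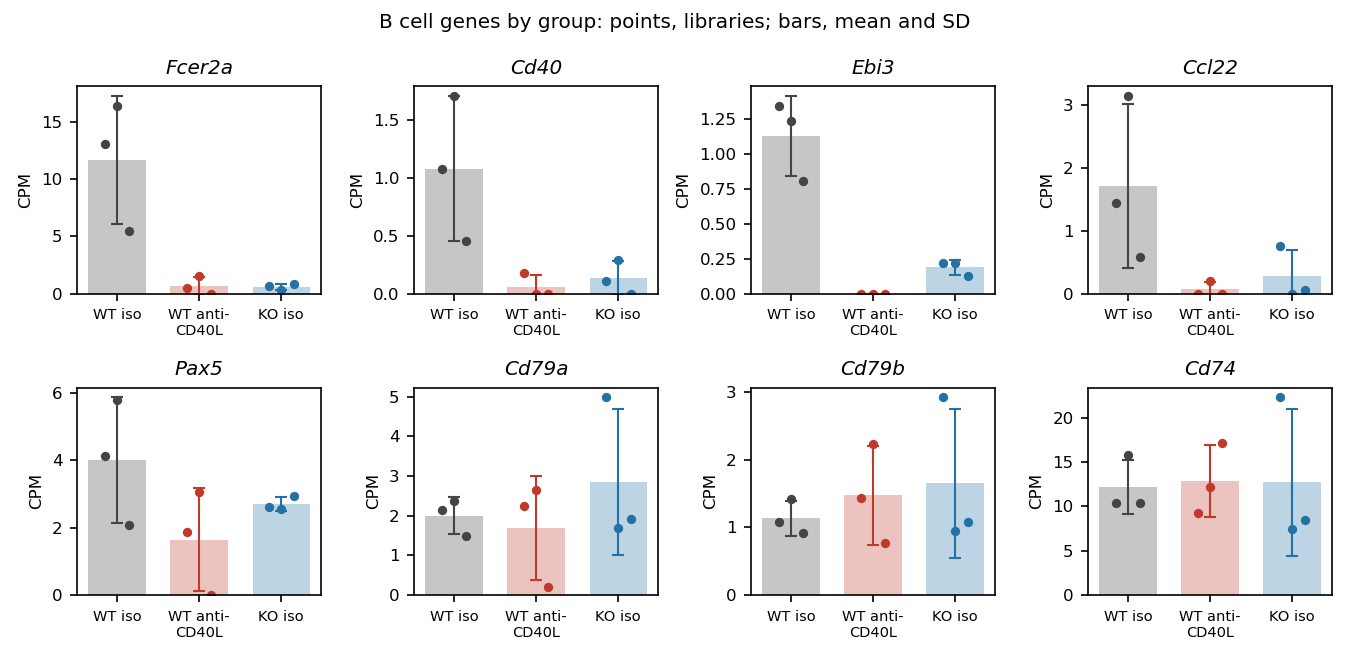
Level in CPM (y axis, from 0) of 8 B cell genes in the 3 groups (x axis), with 1 point per library, bars at the mean and error bars of 1 SD over 3 libraries. Fcer2a, Cd40, Ebi3 and Ccl22 are near 0 in both perturbed groups, while Cd79a, Cd79b and Cd74 overlap between groups.

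Markers of other non-T cells gave no gene called for the mean of both groups. The myeloid marker Itgam was called lower on anti-CD40L alone, where it had 3, 3 and 0 counts (edgeR, Benjamini-Hochberg adjusted p = 0.0336). It was also called between the perturbed groups (edgeR, Benjamini-Hochberg adjusted p = 0.0437). Summed over 10 myeloid markers, controls ranged from 76.1 to 88.67 CPM, anti-CD40L from 44.27 to 47.36 CPM and KO libraries from 54.27 to 100.6 CPM, so only anti-CD40L lay wholly below the controls. Its part in the results was not tested. Most of that sum was Ctss, a lysosomal protease gene, while Lyz2 had 0 to 7 counts and Cd14 0 to 1 in each control. S100a8 and S100a9, neutrophil genes, had 25 and 43 counts in KO replicate 1 and 0 in the other libraries. The myeloid, dendritic cell, NK cell and CD8 T cell lists had 2, 5, 2 and 1 genes tested, and no erythroid marker had enough counts.

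Among genes that rose, Bcl2l1, which encodes BCL-XL (chromosome 2, 152758732 to 152833803), rose most in each perturbed group. Its level was 95.4, 83.8 and 79.5 CPM in controls, 156, 140 and 203 CPM on anti-CD40L, and 118, 132 and 128 CPM in KO libraries. Every perturbed library was above every control, and the anti-CD40L libraries were above the KO libraries. The mean of the perturbed groups was 1.67-fold that of the controls (log2 fold change 0.74, SE 0.11; edgeR, Benjamini-Hochberg adjusted p = 0.00599). The difference between the perturbed groups, 0.39 on the log2 scale (SE 0.12), was not called (edgeR, Benjamini-Hochberg adjusted p = 0.0763). The call was lost without wild-type isotype replicate 3 (edgeR, Benjamini-Hochberg adjusted p = 0.0539).

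Growth genes were among the others that rose. Myc, the transcription factor that drives growth after T cell receptor signals (chromosome 15, 61985341 to 61990361), was at 494, 497 and 530 CPM in controls, 673, 593 and 738 CPM on anti-CD40L, and 637, 630 and 655 CPM in KO libraries. The KO libraries lay within the range of the anti-CD40L libraries, and both groups lay above the controls. Its log2 fold change was 0.37 (SE 0.07; edgeR, Benjamini-Hochberg adjusted p = 0.0251), with 0.40 on anti-CD40L and 0.34 in KO libraries. Of 28 genes tested of the MYC and ribosome biogenesis list, 2 rose, Myc and Dkc1, against 0.133% of all genes tested, and none fell. A further 8 lay above the controls in all 6 libraries without being called: Gnl3, Ncl, Nop2, Nop56, Nop58, Npm1, Polr1a and Rrs1. So 10 of 28 were on the upper side, against 2.75% of all genes tested, and the list median was 0.16 against -0.01. This is a description, not a test. The list was chosen with earlier results of these data known, and its genes were all set against the same control libraries. Dkc1, the pseudouridine synthase of small nucleolar ribonucleoproteins, went from 315 ± 11.1 CPM in controls to 422 ± 32.5 on anti-CD40L and 359 ± 22.5 in KO libraries (SD, n = 3). Ncl, nucleolin, had a log2 fold change of 0.27 (SE 0.08; edgeR, Benjamini-Hochberg adjusted p = 0.0936).

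The remaining 8 genes that rose changed by less than 1.5-fold on average. Nmd3, which exports the large ribosomal subunit, had a log2 rise of 0.35 (SE 0.08), and Rps27a, which encodes ubiquitin fused to a ribosomal protein, rose by 0.53 (SE 0.09). Rps27a has near-identical copies, so its count is uncertain. Dctd, a nucleotide synthesis enzyme gene, rose by 0.43 (SE 0.10), and Mmachc, which processes vitamin B12, by 0.51 (SE 0.11). Membrane genes made up the rest: Stx11 and Ehd1, of vesicle fusion and endocytic recycling, rose by 0.49 (SE 0.10) and 0.39 (SE 0.09). Abcb1b, a P-glycoprotein efflux pump, and Kcnq5, a potassium channel, rose by 0.46 (SE 0.10) and 0.45 (SE 0.10). Tfdp1, the partner of E2F factors, was above the controls in all 6 libraries but was not called (log2 fold change 0.28, SE 0.07; edgeR, Benjamini-Hochberg adjusted p = 0.0545).

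T cell receptor induced genes otherwise moved little together. Of 29 tested, Myc and Irf4 rose and none fell, and of these 2 only Myc had all 6 perturbed libraries above the controls. Of all genes tested, 0.133% rose. Irf4, a transcription factor induced in proportion to receptor signals, was called, but its KO libraries (1507, 1476 and 1748 CPM) overlapped the controls (1310, 1551 and 1633 CPM). Cd69, an early activation marker, lay above the controls in all 6 libraries, at 402, 377 and 442 CPM on anti-CD40L and 394, 394 and 447 CPM in KO libraries against 291, 369 and 323 CPM. Its log2 fold changes were 0.31 and 0.33 in the perturbed groups, and it was not called (edgeR, Benjamini-Hochberg adjusted p = 0.0875).

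All 6 perturbed libraries also exceeded the controls for Il2, which encodes a growth factor of T cells. It stood at 6.27, 3.99 and 4.70 CPM in controls, 15.4, 11.1 and 32.1 CPM on anti-CD40L, and 6.72, 8.27 and 8.08 CPM in KO libraries. The KO libraries lay between the other groups, and Il2 was not called for the mean of both (log2 fold change 1.28, SE 0.31; edgeR, Benjamini-Hochberg adjusted p = 0.0582). Cd69, Irf4 and Ncl were named after their values were seen.

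Among genes that fell, some regulators of the resting T cell and of traffic were graded, with KO libraries between controls and anti-CD40L. Klf2 and S1pr4 were among them, while for Tcf7 and Lpxn the KO and anti-CD40L libraries overlapped. Klf2, a transcription factor that maintains quiescence and the exit receptors of naive T cells (chromosome 8, 72319062 to 72321654), was at 237, 182 and 164 CPM in controls. It stood at 58.0, 72.6 and 57.5 CPM on anti-CD40L and at 163, 149 and 118 CPM in KO libraries. The highest KO library, 162.8 CPM, reached almost to the lowest control, 164.1 CPM. Klf2 was 2.05-fold lower in the perturbed groups (log2 fold change -1.04, SE 0.13; edgeR, Benjamini-Hochberg adjusted p = 0.00176). It fell further on anti-CD40L than in KO libraries, by 1.19 on the log2 scale (SE 0.15; edgeR, Benjamini-Hochberg adjusted p = 0.00051).

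S1pr4, a sphingosine 1-phosphate receptor of lymphocytes (chromosome 10, 81497745 to 81500137), was at 108, 91.8 and 80.1 CPM in controls, 44.2, 48.2 and 52.4 CPM on anti-CD40L, and 67.3, 70.1 and 54.0 CPM in KO libraries. Its 3 groups did not overlap, in the same order as for Klf2, with a log2 fold change of -0.75 for both perturbed groups (SE 0.11; edgeR, Benjamini-Hochberg adjusted p = 0.00527). Without wild-type isotype replicate 1 it was not called (edgeR, Benjamini-Hochberg adjusted p = 0.0623). Of 25 adhesion and migration genes tested, 8 fell, against 1.76% of all genes tested, and none rose. The list median was -0.38. In 4 of the 8 both groups lay below all controls: S1pr4, the laminin-binding integrin chain Itga6, the selectin ligand Selplg and the focal adhesion gene Lpxn. Among the others, Itga4, Itgb7 and S1pr1 were called while at least 1 KO library lay above a control.

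Tcf7, which encodes TCF-1, a factor of naive and memory T cells, was at 1294, 1230 and 1190 CPM in controls, 909, 1036 and 942 CPM on anti-CD40L, and 1085, 1046 and 962 CPM in KO libraries. Here the perturbed groups overlapped each other, and both lay below the controls (log2 fold change -0.31, SE 0.07; edgeR, Benjamini-Hochberg adjusted p = 0.0364). Of 24 naive and quiescence genes tested, 10 fell, against 1.76% of all genes tested, and none rose. Only 2 of these 10, Klf2 and Tcf7, had all 6 perturbed libraries below the controls. The list median was -0.47 on anti-CD40L and -0.10 in KO libraries. Il7r, the IL-7 receptor chain, shows how the mean can be called on the strength of a single group. It was at 230, 139 and 220 CPM in controls, 6.90, 12.8 and 11.5 CPM on anti-CD40L, and 241, 220 and 210 CPM in KO libraries, and it was called for the mean (edgeR, Benjamini-Hochberg adjusted p = 6.15e-05). Its KO libraries overlapped the controls, so it is not a shared gene. It was named after its values were seen.

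Cytokine receptors showed the same split. Of 19 tested, 5 fell, against 1.76% of all genes tested. In 2 of these 5, Il6ra and Tgfbr2, all 6 perturbed libraries were below the controls. Il6ra, the IL-6 receptor chain, was at 113 ± 7.89 CPM in controls, 63.0 ± 10.2 on anti-CD40L and 92.7 ± 8.43 in KO libraries (SD, n = 3). Tgfbr2, a TGF-beta receptor chain, was at 278 ± 4.83, 198 ± 20.1 and 243 ± 20.0 CPM in the same order (SD, n = 3). For Il6ra the perturbed groups differed (log2 value -0.56, SE 0.12; edgeR, Benjamini-Hochberg adjusted p = 0.013), and for Tgfbr2 their difference of -0.30 (SE 0.09) was not called (edgeR, Benjamini-Hochberg adjusted p = 0.066).

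**Figure D3:**
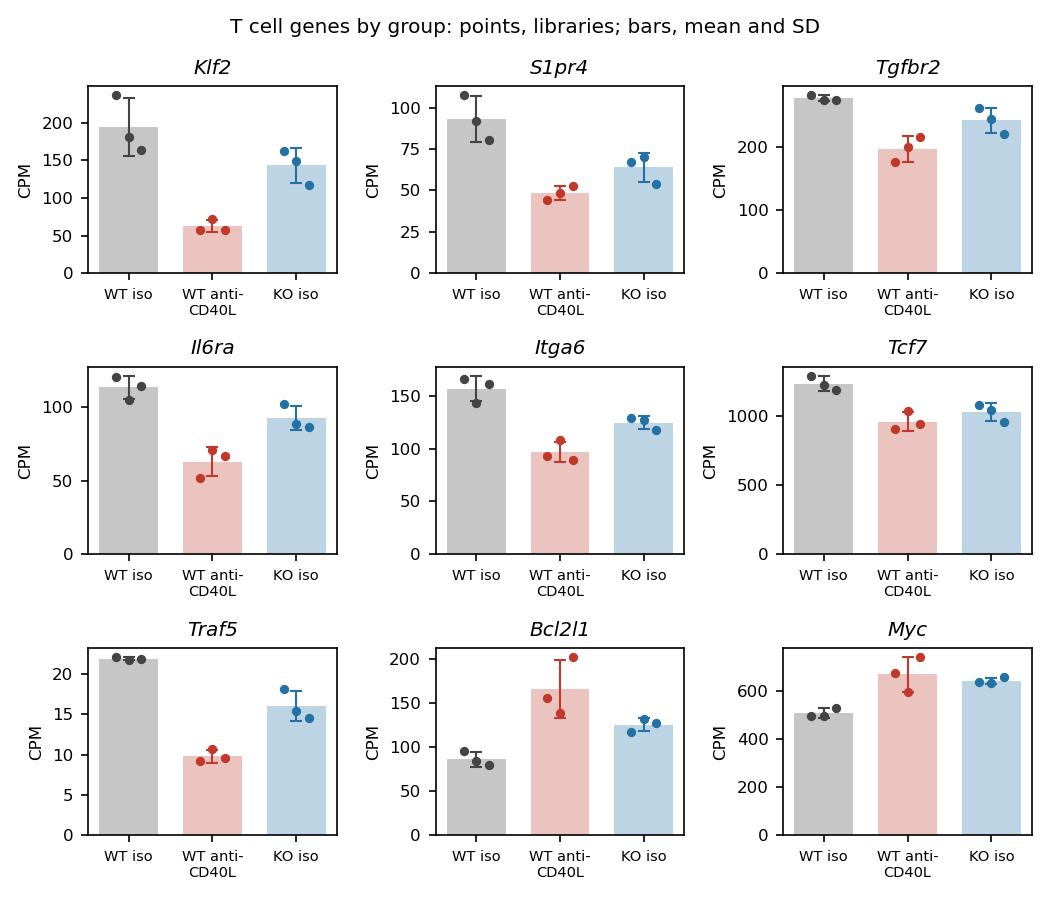
Level in CPM (y axis, from 0) of 9 shared genes in the 3 groups (x axis), with 1 point per library, bars at the mean and error bars of 1 SD over 3 libraries. Klf2, S1pr4, Il6ra, Itga6 and Traf5 show KO libraries between the controls and anti-CD40L, while the perturbed groups overlap for Tcf7 and Myc.

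Signalling proteins of the TRAF and NF-kB system gave 2 shared genes among 27 tested of that list, both lower. Of all genes tested, 0.622% were shared and lower. Traf5, an adaptor of CD40 and other TNF family receptors (chromosome 1, 191997203 to 192092599), was at 22.1, 21.8 and 21.9 CPM in controls, 9.14, 10.6 and 9.55 CPM on anti-CD40L, and 18.1, 15.4 and 14.5 CPM in KO libraries. Its controls lay closer together than either perturbed group, and the 3 groups did not overlap. Traf5 fell by 0.81 on the log2 scale (SE 0.13; edgeR, Benjamini-Hochberg adjusted p = 0.00733), and further on anti-CD40L than in KO libraries (edgeR, Benjamini-Hochberg adjusted p = 0.0156). Tnip1, which encodes ABIN1, an inhibitor of NF-kB signalling, was at 196, 157 and 136 CPM in controls, 116, 114 and 108 CPM on anti-CD40L, and 124, 120 and 108 CPM in KO libraries. Both perturbed groups stood at nearly the same level, with a log2 fold change of -0.50 for both (SE 0.10; edgeR, Benjamini-Hochberg adjusted p = 0.0211). The other TRAF genes of the study's subject, Traf1, Traf2, Traf3 and Traf6, changed by -0.07, -0.10, -0.02 and 0.13 on the log2 scale, without a call (edgeR, Benjamini-Hochberg adjusted p = 0.785, 0.718, 0.934 and 0.392).

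Protein kinase C genes were tested because the series title ties CD40L to RACK1, a scaffold of activated protein kinase C. Rack1 was at 2023 ± 82.7 CPM in controls, 1798 ± 86.8 on anti-CD40L and 1785 ± 243 in KO libraries (SD, n = 3), with a log2 fold change of -0.18 (SE 0.08; edgeR, Benjamini-Hochberg adjusted p = 0.313). Of 13 genes tested of this list only Prkcz was called, against 1.89% of all genes tested. Prkcz, the atypical isoform zeta (chromosome 4, 155260118 to 155361428), was at 13.4, 11.4 and 12.3 CPM in controls, 7.26, 6.49 and 5.16 CPM on anti-CD40L, and 7.70, 6.59 and 5.09 CPM in KO libraries. The perturbed groups overlapped each other, and both lay wholly below the controls. Prkcz was 1.93-fold lower (log2 fold change -0.95, SE 0.19; edgeR, Benjamini-Hochberg adjusted p = 0.0211), and the difference between the perturbed groups was 0.00 on the log2 scale with an SE of 0.23. Prkcq, Prkca and Prkcb gave log2 values of -0.02, 0.22 and -0.21 for the mean of both groups, without a call (edgeR, Benjamini-Hochberg adjusted p = 0.921, 0.174 and 0.245). On anti-CD40L alone Prkca and Prkcb were called, at 0.43 and -0.36 (edgeR, Benjamini-Hochberg adjusted p = 0.0091 and 0.0425). In KO libraries they were at 0.01 and -0.06, without a call.

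For 6 shared genes the KO libraries were on average farther from the controls than anti-CD40L: Fcer2a, Rarg, H2-Q8, H2-Q6, Lpxn and Dse. Rarg, a retinoic acid receptor (chromosome 15, 102234938 to 102257522), was at 27.1, 17.7 and 17.7 CPM in controls, 12.8, 14.2 and 8.41 CPM on anti-CD40L, and 8.89, 8.78 and 5.54 CPM in KO libraries. Both groups lay below the controls (log2 fold change -1.12, SE 0.21; edgeR, Benjamini-Hochberg adjusted p = 0.0165). H2-Q6, a nonclassical MHC class I gene of the Qa region, was at 112, 91.9 and 104 CPM in controls, 59.8, 62.4 and 68.0 CPM on anti-CD40L, and 79.9, 39.2 and 39.6 CPM in KO libraries. KO replicate 1 thus stood above the anti-CD40L libraries and the other KO libraries below them. H2-Q8 had the same layout (log2 fold change -0.91, SE 0.20), and these neighbours are near-identical in sequence, so their counts are uncertain. Lpxn, leupaxin of focal adhesions, fell by 0.62 (SE 0.11), and Dse, an enzyme of dermatan sulfate synthesis, fell by 0.63 (SE 0.13). None of the 6 was called between the perturbed groups. Rarg, H2-Q6 and H2-Q8 were the 3 shared genes not called on anti-CD40L alone (edgeR, Benjamini-Hochberg adjusted p = 0.0638, 0.0595 and 0.0544). Dse and Lpxn were named after their values were seen.

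Lars2, the mitochondrial leucyl-tRNA synthetase gene, was at 747, 954 and 1246 CPM in controls, 468, 628 and 445 CPM on anti-CD40L, and 509, 560 and 647 CPM in KO libraries. It fell by 0.86 on the log2 scale (SE 0.14; edgeR, Benjamini-Hochberg adjusted p = 0.00919), and the difference between the perturbed groups, -0.16 (SE 0.17), was not called. NR_046233, the unnamed transcript above, took 1.184%, 2.635% and 2.368% of the counts in controls, 0.766%, 0.821% and 1.409% on anti-CD40L, and 1.211%, 1.141% and 1.145% in KO libraries. For this transcript the groups overlapped, since control replicate 1 lay below anti-CD40L replicate 3 and KO replicate 1. Its part in the Lars2 result was not tested. Without wild-type isotype replicate 3 Lars2 was not called (edgeR, Benjamini-Hochberg adjusted p = 0.0594).

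Receptors coupled to G proteins were among the leading lower genes beside S1pr4. F2rl1, the protease-activated receptor PAR2, went from 29.9 ± 5.82 CPM in controls to 10.3 ± 3.66 on anti-CD40L and 18.7 ± 1.63 in KO libraries (SD, n = 3). Tbxa2r, the thromboxane A2 receptor, went from 22.6 ± 2.19 to 9.82 ± 4.08 and 14.1 ± 1.97 CPM, and Cnr2, the cannabinoid receptor of immune cells, from 6.38 ± 1.04 to 2.07 ± 0.641 and 4.12 ± 0.815 CPM (SD, n = 3). All 3 fell (edgeR, Benjamini-Hochberg adjusted p = 0.00919, 0.0278 and 0.0486), and only F2rl1 also differed between the perturbed groups (0.048). Zbtb42, a zinc finger gene, and Card19, a caspase recruitment domain gene, fell by 1.44 (SE 0.30) and 1.08 (SE 0.25) on the log2 scale.

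The perturbed groups were then compared with each other. This test uses no control library, but the shared genes had been chosen with both perturbed groups in it. It called 769 genes (6.83%), 202 higher (1.79%) and 567 lower (5.04%) on anti-CD40L, with 22.2% at an unadjusted p under 0.05. Of the 81 shared genes 33 were called, all among the 70 lower ones, and in each the anti-CD40L mean was farther from the controls. The other 48, with all 11 higher genes, were not called, which does not show that they moved equally. Over the 70 lower genes the median log2 fold change was -0.75 on anti-CD40L and -0.36 in KO libraries, and over the 11 higher genes it was 0.59 and 0.33. Over all genes tested the medians were -0.01 and 0.00. In 42 of the 70 lower genes all anti-CD40L libraries were below all KO libraries. A change of at least 1.5-fold was reached by 57 of the 81 on anti-CD40L and by 14 in KO libraries. Of the 81, 78 were called on anti-CD40L alone and none for the KO label alone. The choice of shared genes thus favoured a larger change on anti-CD40L, and these counts and medians are a description only.

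Smpdl3a, an acid sphingomyelinase-like phosphodiesterase gene, was the most unequal of the shared genes among those that fell. It was at 25.4, 21.9 and 23.9 CPM in controls, 4.84, 3.75 and 2.87 CPM on anti-CD40L, and 18.7, 18.2 and 14.6 CPM in KO libraries. It fell in both groups together by 1.53 on the log2 scale (SE 0.16; edgeR, Benjamini-Hochberg adjusted p = 0.00051), and the groups differed by -2.11 (SE 0.21; edgeR, Benjamini-Hochberg adjusted p = 6.93e-05). At the other end, 17 of the 81 genes differed by at most 0.2 between the groups on the log2 scale, Prkcz, Tnip1, Lars2, Lpxn, Tcf7 and Myc among them. Smpdl3a was named after its values were seen.

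**Figure D4:**
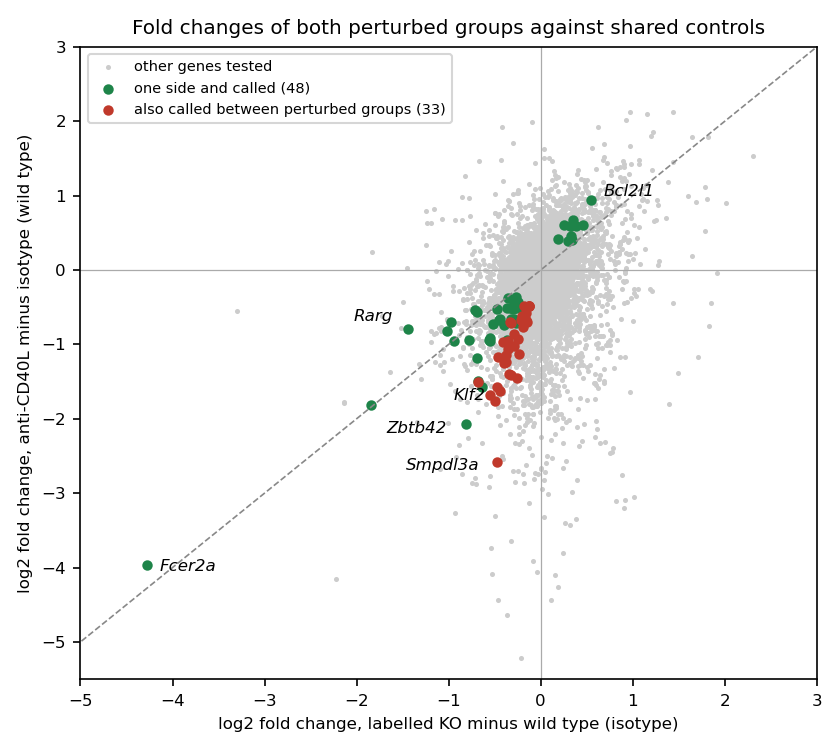
Log2 fold change against wild-type isotype in libraries labelled KO (x axis) and on anti-CD40L (y axis), with 1 point per gene tested. Green points are the 48 shared genes not called between the perturbed groups, red points the 33 that were, and the dashed line marks equal change. Most shared genes lie farther along the y axis, and both axes use the same control libraries.

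Regulators of helper T cell fate were not shared. Gata3, Foxp3 and Bcl6, which direct Th2, regulatory and follicular helper cells, had log2 fold changes of -0.19, -0.09 and -0.31 for the mean of both groups (edgeR, Benjamini-Hochberg adjusted p = 0.712, 0.782 and 0.375). On anti-CD40L alone Bcl6 was called lower (log2 value -0.80; edgeR, Benjamini-Hochberg adjusted p = 0.0234), while in KO libraries it was at 0.19 and not called. Gata3 and Foxp3 were called in neither group alone. The Th1, Th2 and Th17 genes Ifng, Tbx21, Il4 and Il17a had too few counts for the test. Of the CD40L-binding integrin chains, Itga5, Itgb1, Itgam and Itgb3 were not called for the mean of both groups (edgeR, Benjamini-Hochberg adjusted p = 0.416, 0.176, 0.207 and 0.169). On anti-CD40L alone Itgb1, Itgam and Itgb3 were called, with log2 values of 0.38, -2.81 and -1.42 (edgeR, Benjamini-Hochberg adjusted p = 0.0395, 0.0336 and 0.00329). Itgam had only 3, 3 and 0 counts there. In KO libraries alone no integrin chain was called. Of 30 interferon response genes 1 was called and none lay on the same side in all 6 libraries, with list medians of -1.02 on anti-CD40L and 0.03 in KO libraries. Of all genes tested, 1.89% were called and 5.6% lay on the same side. Of the remaining lists, Th1 had 1 gene of 8 tested called lower for the mean (Il18r1), and cell cycle 1 of 28 (Cdkn1b). Il6ra was the 1 lower gene of 5 on the Th17 list and of 11 on the follicular helper list, and Rarg of 15 nuclear receptor genes. The survival list had 1 higher of 20 (Bcl2l1), and the immediate early list 1 of each among 20 (Dusp5 and Klf6). Of all genes tested, 1.76% fell and 0.133% rose. Il6ra, Rarg and Bcl2l1 are shared genes, while Il18r1, Cdkn1b, Dusp5 and Klf6 are not. The glycolysis, cholesterol synthesis, oxidative phosphorylation, ATF4, regulatory T cell, Th2, cytokine and TNF family lists held no gene called for the mean of both groups. Between the perturbed groups, 14 of 29 glycolysis, 6 of 27 cholesterol, 5 of 9 cytokine and 3 of 12 regulatory T cell genes were called. The TNF family, ATF4, oxidative phosphorylation and Th2 lists had 3 of 21, 2 of 18, 1 of 25 and 1 of 6. Of all genes tested, 6.83% were called there.

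The number of calls depended on the libraries, above all on the 3 controls. With 1 control left out, 29, 127 and 48 genes were called without replicates 1, 2 and 3, and 7, 30 and 19 of the 81 shared genes were among them. Without a perturbed library the count was 143, 293 and 261 (anti-CD40L replicates 1 to 3) and 320, 96 and 136 (KO replicates 1 to 3). In each of these 9 fits 4 shared genes were called, Fcer2a, Klf2, Smpdl3a and Cnp, the last a phosphodiesterase gene known from myelin named after its values were seen. These calls are for the mean only. Klf2, Smpdl3a and Cnp fell further on anti-CD40L than in KO libraries (edgeR, Benjamini-Hochberg adjusted p = 0.00051, 6.93e-05 and 0.00115). For Cnp the highest KO library, 76.8 CPM, reached almost to the lowest control, 77.1 CPM. Of the other shared genes named by the rule, Rarg, Traf5, Il6ra, Itga6 and Rps27a lost the call without control replicate 1 or 3, and F2rl1 without replicate 1. Myc and Prkcz lost it without any 1 control or KO replicate 2, and Tnip1 without control replicates 1 or 2 or KO replicate 2. A further 10 named genes lost it without any 1 control, anti-CD40L replicate 1, or KO replicates 2 or 3: Abcb1b, Card19, Cnr2, Dctd, Kcnq5, Mmachc, Nmd3, Stx11, Tbxa2r and Tgfbr2. The same held for Zbtb42 apart from anti-CD40L replicate 1, for Ehd1 with KO replicate 1 added, and for Dkc1 and Tcf7 with anti-CD40L replicate 3 added. H2-Q6 and H2-Q8 kept the call only without KO replicate 1. Selplg lost it without control replicate 1, Lpxn without control replicate 1 or 3, and Dse in the same fits as Zbtb42, with highest adjusted p of 0.0788, 0.126 and 0.134 (edgeR, Benjamini-Hochberg). The highest adjusted p in these fits ranged from 0.0697 to 0.182 for Rarg, Traf5, Il6ra, Itga6 and Rps27a and from 0.172 to 0.289 for the 10 (edgeR, Benjamini-Hochberg). It was 0.098 for F2rl1, 0.248 for Zbtb42, 0.208 for Ehd1, 0.177 for Prkcz and Tnip1, 0.171 for Myc, 0.222 for Dkc1, 0.246 for Tcf7, and 0.207 and 0.211 for H2-Q6 and H2-Q8 (edgeR, Benjamini-Hochberg).

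**Figure D5:**
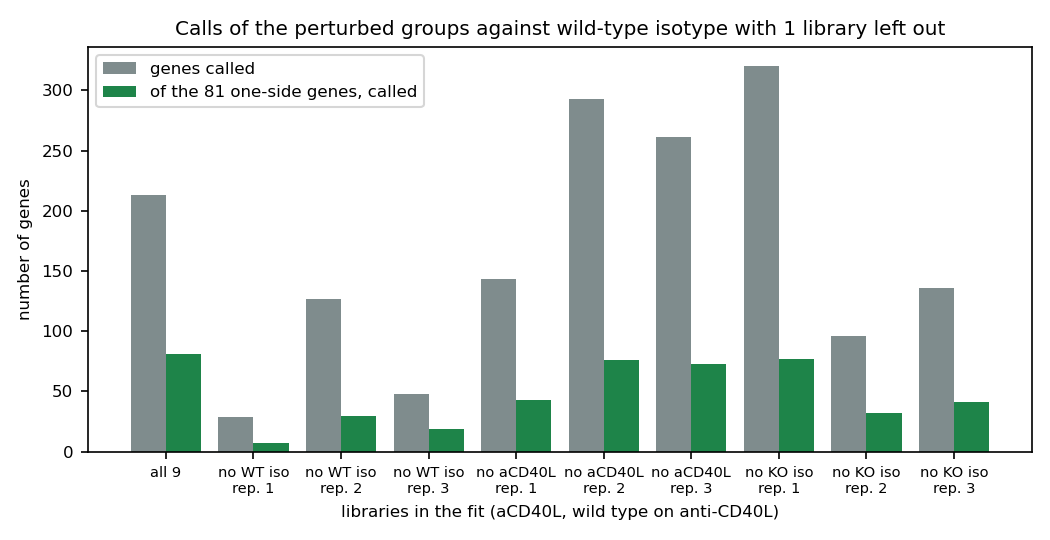
Number of genes called (y axis, from 0) for the mean of the perturbed groups against wild-type isotype, with all 9 libraries and with each library left out (x axis). Grey bars count all calls and green bars those among the 81 shared genes. Both are lowest without wild-type isotype replicate 1, at 29 and 7.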

How the data were processed

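RNA-seq of 9 libraries, 3 per group by sample title and treatment label, was analysed. The values the authors deposited are expected counts for each RefSeq transcript, in multiples of 0.5 and without normalization. The submitters' processing notes name CASAVA 1.8.2, HISAT2 2.1.0 and the build mm10. No source used here gives the counting tool, strand use or treatment of multiple alignments, so counts of paralogs and overlapping or antisense genes are uncertain.

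Of 42361 rows, 42203 were named from the RefSeq table of GRCm38.p6 and 65 from GENCODE vM21, and 93 kept their identifier. Rows of 1 gene held nearly the same counts (median ratio of second to first 0.991), so the row of highest total was kept for each of 25160 genes. Values ending in 0.5 were rounded up. Genes were filtered with filterByExpr by group (11256 left) and scaled by TMM. Whole counts had been assumed when the test was chosen, and rounded expected counts were used instead. The test was the robust quasi-likelihood F test of edgeR 4.0.16 in R 4.3.3 on all 9 libraries, with 1 term per group, and Benjamini-Hochberg adjustment over all genes tested, at 0.05. The contrast was the mean of both perturbed groups minus wild-type isotype. It was tested on simulated data first. The common biological coefficient of variation was 0.127. Errors are SE for log2 fold changes and SD for levels.

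The members and the 32 gene lists were chosen with earlier results of these data known. Named genes were the 25 study-subject genes, the 12 shared genes per direction with the largest value of the smaller of the 2 groups' absolute log2 fold changes (at least 1 CPM, places left over going to uncalled genes of smallest p), and up to 2 shared genes per list and direction. The choice by size skipped predicted genes, pseudogenes and segments of antigen receptors. A few genes chosen this way are not reported here. Alternatives were DESeq2 1.42.0, limma-voom 3.58.1 with and without quality weights, RLE scaling, no filter, no robust estimation, a 2-level model, a replicate block, values ending in 0.5 rounded down, each library left out, and, added after seeing the data, NR_046233 left out.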

Additional observations from a re-analysis of the deposited data

How the results depend on the processing

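No gene named changed direction in any alternative with a call on either side. Of their alternative results 761 kept their side of the threshold, 175 lost a call and 12 gained one. The mean of the perturbed groups called 508 genes with DESeq2, 278 with limma-voom, 671 with quality weights, 799 without the filter and 1 (Fcer2a) in the 2-level model, against 213. Higher and lower calls were 15 and 198 with all settings as described, 117 and 391 with DESeq2, 24 and 254 with limma-voom, 123 and 548 with quality weights, and 206 and 593 without the filter. Shared genes numbered 203 with DESeq2, 224 with quality weights, 190 without the filter and 1 in the 2-level model, against 81. In the same order DESeq2 and no filter called 1625 and 1698 genes for anti-CD40L against wild-type isotype, where quality weights called 1577. For KO against wild type DESeq2, quality weights and no filter called 39, 32 and 102, and for anti-CD40L against KO 1219, 1464 and 1305. The cause of these differences was not tested. With 1 library left out the ranges were 29 to 320 calls for the mean, 486 to 1342 for anti-CD40L, 0 to 2 for KO, 346 to 1022 between the perturbed groups, 693 to 1266 genes on the same side (fewer libraries make this easier), 12 to 208 of these called, and 13 to 42 shared genes that differ between the perturbed groups. Replicate numbers are shared between groups in the titles only: same-numbered libraries had correlations of deviations from -0.18 to 0.191 over 9 pairs, and in 8 of 18 cases a library correlated best with its own number. A replicate block gave 202 calls, 68 shared genes, and 63 of the 81 called. RLE scaling gave 211 calls and the fit without robust estimation 216.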
